A study of Mus musculus with 3 samples.

Results

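The activity-dependent immediate early genes Fos, Fosb, Junb, Egr1, Npas4, Nr4a1 and Arc were examined for methylated DNA in mouse frontal cortex. The 7 genes were named for their known role, with earlier results of these data known, and their probes were taken by position: 188 of the 409597 placed probes of the array lay within 10 kb of the 7 gene intervals on mouse build mm9. Joining probes whose starts lay at most 500 bp apart gave 11 tiled regions with at least 3 probes, of 28881 on the array. The tiled region at or nearest the 5′ end of each of the 7 genes is called its start region. That of Nr4a1 began 11074 bp inside the gene interval. The 4 other regions lay at a 3′ end or in a 3′ flank. The study mapped 5-methylcytosine at sites around transcription starts, and its title connects such methylation to binding of the TATA-binding protein. Its 3 arrays form 1 group, naive male C57BL/6 mice aged 2 months, with frontal cortex DNA of 3 mice in each pool. Methylated fragments were captured from sonicated DNA with an antibody against 5-methylcytosine (methylated DNA immunoprecipitation), and the bound DNA (Cy5) was hybridised with the input DNA (Cy3) of the same pool. There was no stimulated or other second group, the DNA came from whole tissue with all its cell types, and the dyes were oriented the same way on all arrays, so a dye effect and enrichment cannot be told apart.

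Immediate early genes are transcribed within minutes of synaptic activity, without new protein synthesis, through factors already present in the neuron such as CREB and SRF. Most of them encode transcription factors that act on later genes, whereas Arc acts at the synapse itself. In many tissues the CpG-rich promoters of active or inducible genes carry little 5-methylcytosine, while most CpGs elsewhere in the genome are methylated.

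The start sequences show how many CpGs, the dinucleotides that the antibody can find methylated, each gene offers at its start. RefSeq promoter sequences of build GRCm38.p6, each from 250 bases before to 50 bases after a transcription start, matched 5 of the 7 genes. They are printed 5′ to 3′ on the strand of the gene with each CpG in capitals. They come from chr12:85473640-85473939, plus strand (Fos), chr7:19309996-19310295, minus strand (Fosb), chr8:84978699-84978998, minus strand (Junb), chr19:4989922-4990221, minus strand (Npas4), and chr15:101266596-101266895, plus strand (Nr4a1). The array positions below are on mm9 and were not converted to this build.
Fos: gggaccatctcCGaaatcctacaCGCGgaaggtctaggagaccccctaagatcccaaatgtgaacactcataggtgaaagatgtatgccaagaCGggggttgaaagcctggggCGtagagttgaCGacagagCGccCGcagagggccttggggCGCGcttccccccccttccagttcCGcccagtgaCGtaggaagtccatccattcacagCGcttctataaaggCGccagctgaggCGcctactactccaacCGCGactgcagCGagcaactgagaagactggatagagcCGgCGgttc
Fosb: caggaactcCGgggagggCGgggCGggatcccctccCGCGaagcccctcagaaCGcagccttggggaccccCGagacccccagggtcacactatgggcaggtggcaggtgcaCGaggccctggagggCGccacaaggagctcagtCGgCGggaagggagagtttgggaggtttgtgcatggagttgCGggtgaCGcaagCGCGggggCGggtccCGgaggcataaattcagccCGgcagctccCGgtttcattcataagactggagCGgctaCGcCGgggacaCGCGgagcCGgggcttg
Junb: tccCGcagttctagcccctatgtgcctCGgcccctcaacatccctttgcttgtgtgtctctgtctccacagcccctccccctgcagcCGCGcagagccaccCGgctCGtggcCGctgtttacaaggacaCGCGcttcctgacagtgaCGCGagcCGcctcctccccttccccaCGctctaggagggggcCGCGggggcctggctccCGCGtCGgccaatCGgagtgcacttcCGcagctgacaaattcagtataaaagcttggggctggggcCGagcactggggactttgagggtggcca
Npas4: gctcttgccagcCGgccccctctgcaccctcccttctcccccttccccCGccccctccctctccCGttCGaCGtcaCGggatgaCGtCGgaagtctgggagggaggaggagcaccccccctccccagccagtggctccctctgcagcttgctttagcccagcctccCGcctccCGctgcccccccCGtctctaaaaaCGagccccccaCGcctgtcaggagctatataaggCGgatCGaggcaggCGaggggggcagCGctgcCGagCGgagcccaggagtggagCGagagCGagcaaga
Nr4a1: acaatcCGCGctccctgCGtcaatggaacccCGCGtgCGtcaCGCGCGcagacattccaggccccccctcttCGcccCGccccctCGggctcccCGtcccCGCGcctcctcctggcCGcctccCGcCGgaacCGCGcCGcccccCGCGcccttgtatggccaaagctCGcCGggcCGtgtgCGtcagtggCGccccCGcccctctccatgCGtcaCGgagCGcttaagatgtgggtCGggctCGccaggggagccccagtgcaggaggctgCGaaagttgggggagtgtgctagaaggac

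All 5 starts were rich in CpGs. The Fos promoter held 20 CpGs, Junb and Npas4 held 21 each, Fosb held 25 and Nr4a1 held 35. Over the 32851 RefSeq promoters of the same length the median was 7, with quartiles of 3 and 20. The Fos promoter thus stood above 73.5% of promoters by CpG number and the Nr4a1 promoter above 93.0%. The ratio of observed to expected CpGs ran from 0.603 in Npas4 to 0.913 in Nr4a1.

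**Figure D1:**
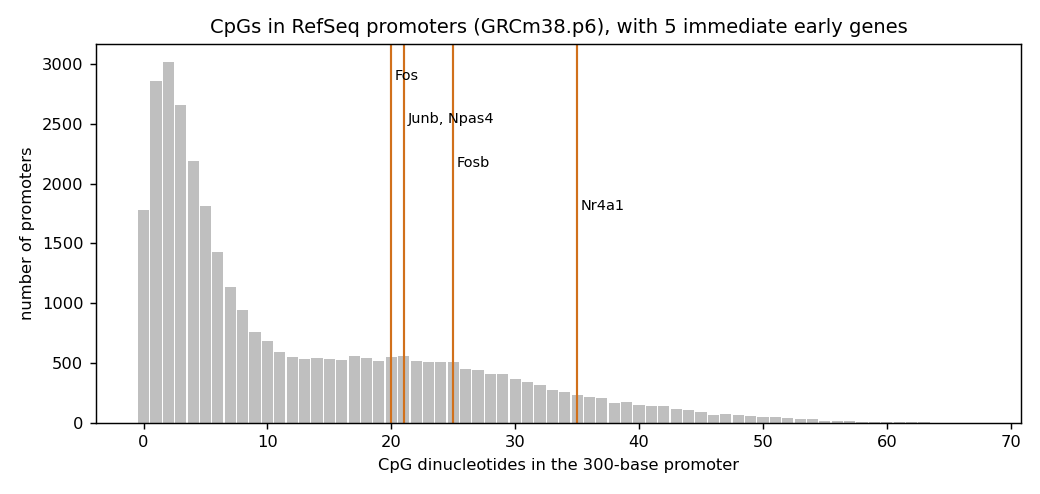
Number of RefSeq promoters (vertical axis) by CpG dinucleotides in the 300-base promoter (horizontal axis), with a vertical line at each of the 5 immediate early genes. The lines stand at 20 (Fos), 21 (Junb, Npas4), 25 (Fosb) and 35 (Nr4a1), to the right of the median of 7.

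The histogram of promoter CpGs places the 5 genes in the long right shoulder of the distribution and not in its peak. The cAMP response element is the site of CREB, and its half-site CGTCA itself contains a CpG. The half-site was found on either strand in 5 of 5 promoters, against 20.8% of all promoters. That share was not matched for CpG number, and most promoters held fewer CpGs than these 5. The first base of the half-site lay 129 and 66 bases upstream of the start in Fos, 60 in Fosb and 106 in Junb. In Npas4 it lay 179 and 169 bases upstream, and in Nr4a1 233, 213, 69 and 40 bases upstream. The full element TGACGTCA, which contains the half-site on both strands, was in 0 of 5, against 1.79% of all promoters. A TATA box (TATAAA, either strand) was present in 2 of 5, against 13.6% of all promoters. It began 33 bases upstream of the start in Fos and at the first transcribed base of the RefSeq record in Junb. Variants of these letters, such as TATATAAG in Npas4, were not counted. The AP-1 site TGANTCA, the site bound by Fos and Jun family dimers, was in 0 of 5 against 7.81%, and the serum response element was in 0 of 5 against 1.63%. These matches describe letters in a window and not bound factors. Sites more than 250 bases upstream, and the promoters of Arc and Egr1, were not searched.

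A wider list of 20 genes of the same pathway, which included other Fos, Jun, Egr and Nr4a family members and the upstream factors Creb1, Srf and Elk1, was matched for 16 genes with 27 promoters. Their median was 19 CpGs, with a range from 2, at a promoter of Bdnf (a neurotrophin), to 52, at Nr4a2 (a nuclear receptor related to Nr4a1). Of the 27 promoters 23 lay above the median of all promoters. The CRE half-site was found in 10 of the 16 genes, against 23.0% of genes in the table. This share was likewise not matched for CpG number or for promoters per gene. The files give probes by position without gene names, so array values of the wider list were not analysed here.

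Each array value is the log2 of bound signal divided by input signal, and 0 is the median probe of the array. A value below 0 therefore means less bound DNA than at the median probe, and no value is a methylation percentage. Region means passed the test where limma's 1-group fit gave an adjusted p under 0.05 over all regions. On that rule 38.1% of all regions were lower than the array median and 28.0% were higher. Of the 11 regions near the immediate early genes 7 were lower, 1 was higher and 3 were not called. Without any 1 array 0 were higher and 6 to 7 were lower, beside 6655 to 7796 higher and 9191 to 10545 lower over all 28881 regions. The median of the 11 region means was -0.55, beside -0.11 over all regions. The 7 start regions had the same median, -0.55. With the zero set at the most frequent log ratio of each array, which lay 0.64 to 0.81 above the median, all 11 regions were lower, and so were 22234 of all regions, with 2496 higher.

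Of the 188 probes 75 (39.9%) were lower and 24 (12.8%) were higher, beside 23.6% lower and 22.4% higher over all probes. The remaining 89 were not called. Without array 1, 2 or 3 the higher calls numbered 14, 8 and 13 and the lower calls 68, 49 and 57. Over all probes the same settings gave 63336, 42674 and 54655 higher calls and 86576, 58568 and 62411 lower ones, of 409569 to 409575 probes. The median value of the 188 probes was -0.61 beside -0.02 over the array. At 48 of the 188 probes (25.5%, against 17.4% of the array) input was well above background on some array but bound signal on none. Of the 75 lower calls 35 were at such probes. There the true bound signal may lie above or below the value used, so the size of the ratio is uncertain. At 9 further probes neither signal was well above background on any array. Without probes dim in both channels 179 of the 188 remained, and 351074 of 409559 over the array. Input signal was well above background in 87.1% of the measurements at these genes, against 73.8% over the array, and bound signal in 55.5% against 54.7%.

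**Figure D2:**
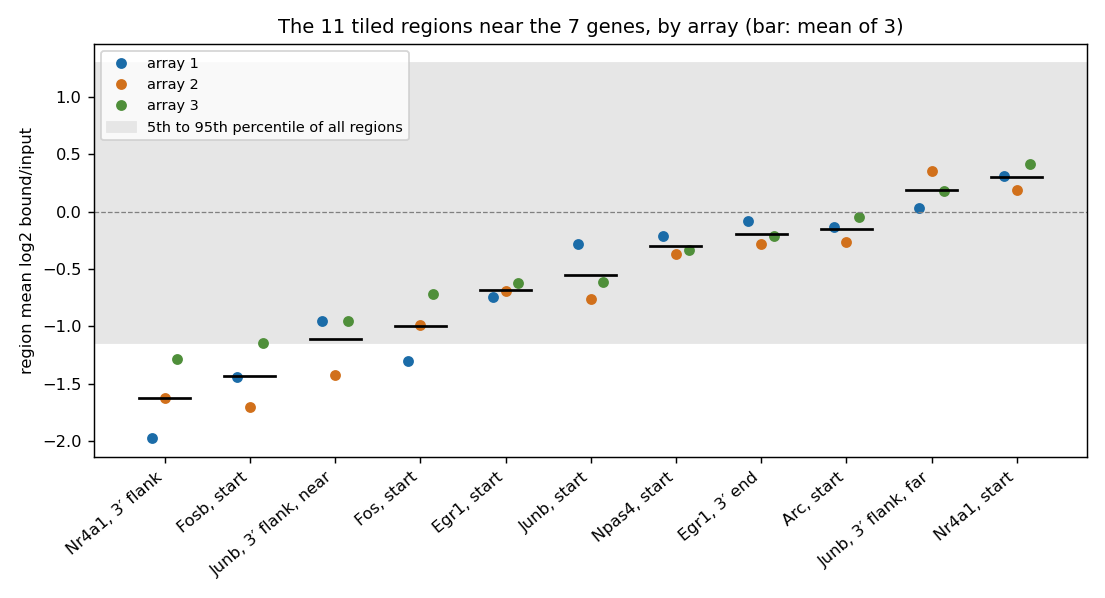
Mean log2 bound over input (vertical axis) of the 11 tiled regions, ordered by their mean, with a point for each array and a bar at the mean of the 3 arrays. The grey band runs from the 5th to the 95th percentile of all regions (-1.15 to 1.30), and the 3′ flank of Nr4a1 and the start of Fosb have means below it.

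The plot of region means by array shows the regions in a near-continuous order, and in several regions the arrays spread further than the distance to the next region's mean. The median SD of a region over arrays was 0.19. Pearson's r between pairs of arrays was 0.72 to 0.79 over the 188 probes at these genes, beside 0.73 to 0.77 over the array. Neighbouring probes share DNA fragments and are not independent.

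The Fos family genes held the lowest starts. Fosb encodes a Fos family subunit of the AP-1 transcription factor, and a truncated form of it accumulates after repeated stimulation. The Fosb start region (chr7:19895193-19896569, 14 probes) gave -1.44, -1.70 and -1.14 on arrays 1, 2 and 3. All arrays were low, and array 2 was lowest. The mean was -1.43 ± 0.28 (SD, n = 3), 2.69-fold below the array median (limma, adjusted p = 2.64e-06), and only 1.79% of all regions were lower. Of its probes 11 were lower and 0 were higher. A run of 6 neighbouring lower probes covered 644 bp on the gene side of the 5′ end and averaged -1.99 ± 0.21, with bound signal not well above background on any array at 4 of them. A second run of 3 lower probes lay 104 to 259 bp upstream and averaged -1.47 ± 0.22. Distances are from the 5′ end of gene intervals that are given to 1 kb, so they carry that uncertainty.

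Fos encodes the founding subunit of AP-1 and is the usual marker of recently active neurons. Its start region (chr12:86813636-86815022, 17 probes) gave -1.30, -0.99 and -0.72. The 3 arrays spread widely but all lay below 0. The mean was -1.0 ± 0.29 (SD, n = 3), 2.00-fold below the array median (adjusted p = 4.24e-05), with 10 probes lower and 1 higher. A run of 4 lower probes 605 to 859 bp upstream averaged -1.61 ± 0.24. The single higher probe lay 1143 bp upstream and gave 0.80, 0.84 and 0.69. That probe sat between low neighbours, as the probe profiles show.

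Junb encodes a Jun family subunit that pairs with Fos proteins and dampens the activity of other Jun proteins. Its start region (chr8:87502402-87503770, 16 probes) gave -0.28, -0.77 and -0.61. Array 1 stood above the other arrays. The mean was -0.55 ± 0.25 (SD, n = 3), 1.47-fold below the median (adjusted p = 0.00245), with 6 probes lower and 0 higher. A run of 3 lower probes 372 to 601 bp upstream averaged -1.49 ± 0.30. With bound signals near background raised to the lowest signal well above it, a setting chosen after the data were seen, the Fos start stood at -0.42 (adjusted p = 0.052) and the Junb start at -0.27 (adjusted p = 0.092), while Fosb remained lower. That setting raised the median of all regions to 0.61.

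**Figure D3:**
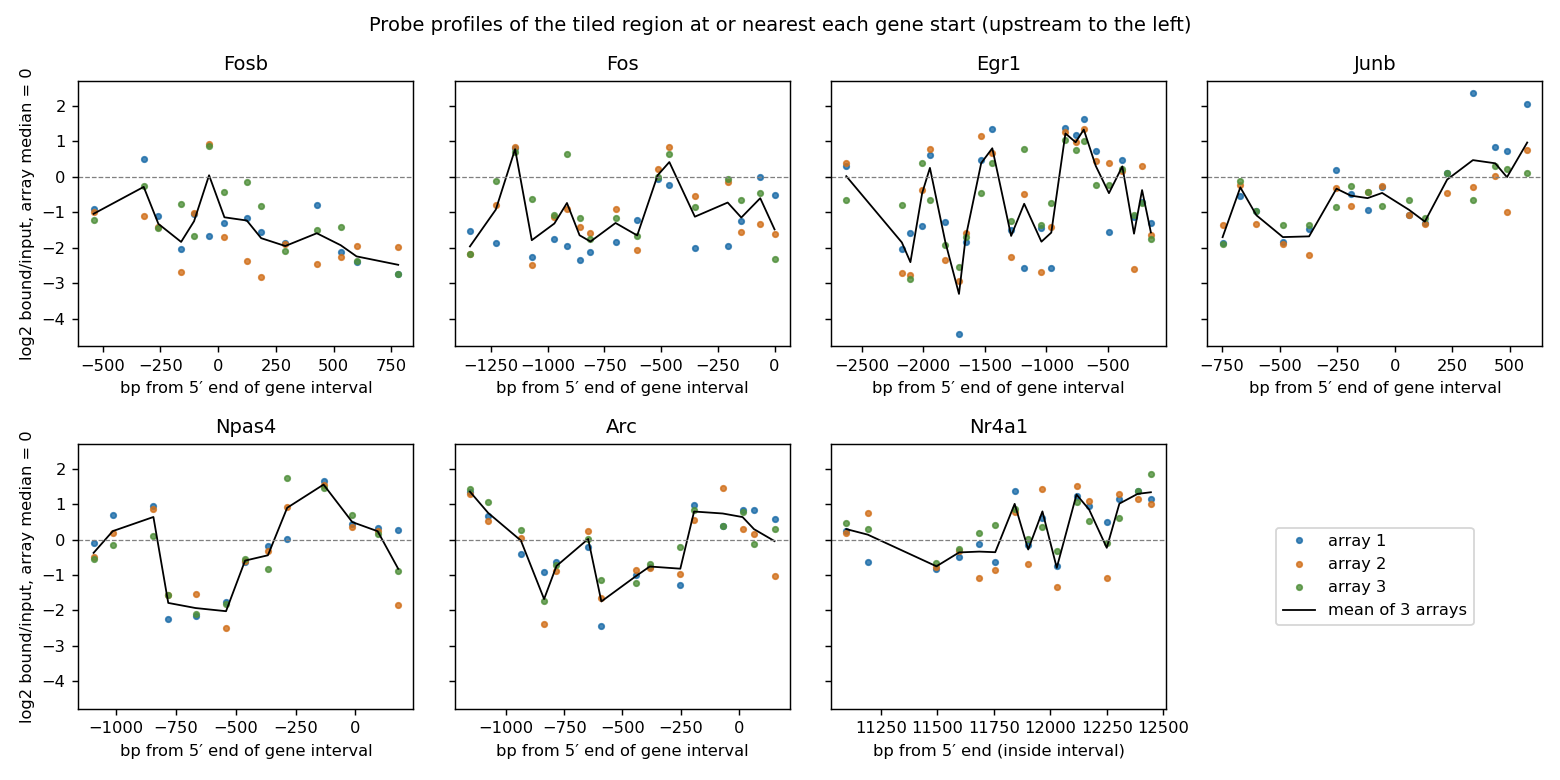
Log2 bound over input (vertical axis) of each probe in the start region of each gene, against the distance in bp from the 5′ end of the gene interval (horizontal axis, upstream to the left), with points for the 3 arrays and a line at their mean. Probe values of Fosb and Fos lie mostly below 0, whereas Egr1, Npas4, Arc and Nr4a1 have stretches above 0. The gene-side part of Junb averages 0.35 ± 0.76, without a probe called higher.

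The probe profiles show that a region mean can hide opposite stretches. Egr1, a zinc finger transcription factor used as a marker of plasticity, was the clearest case. Its start region (chr18:35018351-35020870, 23 probes) gave -0.75, -0.69 and -0.62 on the 3 arrays. These were the closest array values of the 11 regions. The mean was -0.69 ± 0.06 (SD, n = 3), 1.61-fold below the median (adjusted p = 2.47e-04). Within it 10 probes were lower and 3 were higher. The 3 higher probes were neighbours, 697 to 846 bp upstream, and averaged 1.40, 1.19 and 0.94 on the 3 arrays. All 3 lay well above the array median, at 1.18 ± 0.23. Further out, 1656 to 1821 bp upstream, 3 neighbouring probes averaged -2.28 ± 0.23, of which 1 had bound signal not well above background on any array. Over the 7 probes of the region that were well above background in both channels on all arrays, the region mean was 0.42 and was called higher (adjusted p = 0.0021). With bound signals raised to the floor it was 0.29 and not called. Both settings raised the array as a whole, to a median over all regions of 0.31 with the filter and 0.61 with the floor, so these values lay near and below the typical region of their setting. A second Egr1 region, at the 3′ end of the gene (chr18:35024594-35025915, 15 probes), gave -0.09, -0.29 and -0.21, with a mean of -0.20 ± 0.10 that was not called (adjusted p = 0.163). Its outermost probe was higher, at 1.97, 2.09 and 1.04.

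Npas4 encodes a basic helix-loop-helix PAS factor that is induced in neurons by calcium influx and acts on inhibitory synapses. Its start region (chr19:4989799-4991116, 13 probes) gave -0.21, -0.37 and -0.33. All arrays were slightly below 0. The mean was -0.30 ± 0.08 (SD, n = 3), 1.23-fold below the median (adjusted p = 0.0371), and the mean was 0.0039 with loess normalisation and 0.0046 with the authors' deposited log2 values. The call was also lost without array 2 (-0.27) and without array 3 (-0.29), and with probes above background in both channels alone (-0.037). The mean again joined unlike stretches. A run of 3 lower probes 540 to 782 bp upstream averaged -1.91 ± 0.12. The probe 133 bp upstream gave 1.65, 1.55 and 1.45 on the 3 arrays (1.55 ± 0.10, adjusted p = 0.00558). It was the highest probe of the region and the only one called higher.

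Nr4a1 encodes an orphan nuclear receptor whose activity follows its abundance. Its interval is 20 kb long, and the tiled region nearest the 5′ end began 11074 bp inside it (chr15:101096074-101097468, 16 probes). Whether this region covers the RefSeq start printed above was not tested, since positions were not converted between builds. That region gave 0.31, 0.19 and 0.41, above 0 on all arrays. The mean was 0.30 ± 0.11 (SD, n = 3), 1.23-fold above the median (adjusted p = 0.0397), with 6 probes higher and 1 lower. It was the only 1 of the 11 regions called higher. The 3 probes at its gene-side end averaged 1.22, 1.14 and 1.27 (1.21 ± 0.06). The call was lost without any 1 array (means of 0.25 to 0.36) and with a trend on probe length removed (0.20). With the zero at the most frequent log ratio the mean turned to -0.42.

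Arc encodes a cytoskeleton-associated protein that removes AMPA receptors from synapses, and it is the member that is no transcription factor. Its start region (chr15:74502826-74504176, 15 probes) gave -0.14, -0.27 and -0.05. The mean of -0.15 ± 0.11 (SD, n = 3) was not called (adjusted p = 0.271), and 47.2% of all regions were lower. Of its probes 5 were lower and 3 higher. The outermost probe, 1154 bp upstream, gave 1.33, 1.28 and 1.44 (1.35 ± 0.08), with bound intensities of 22897, 29505 and 36556. Another higher probe lay 193 bp upstream at 0.79 ± 0.22. Between them, 383 to 590 bp upstream, a run of 3 lower probes averaged -1.18 ± 0.21. The Arc start was therefore near the array median as a whole and far from it in its parts.

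**Figure D4:**
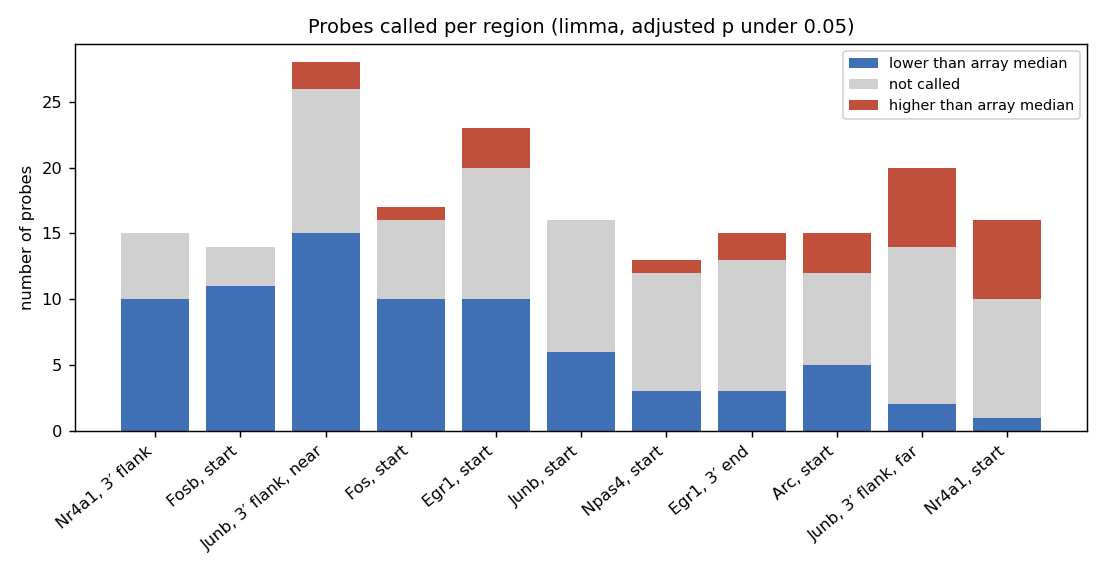
Number of probes (vertical axis) called lower, not called or called higher against the array median in each of the 11 tiled regions, ordered by region mean (limma, adjusted p under 0.05 over all probes). The Fosb start, the Junb start and the Nr4a1 3′ flank hold no higher probe, and the Nr4a1 start holds 6 higher and 1 lower.

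The counts of called probes show that 8 of the 11 regions held probes of both directions. Among the flanking regions the 3′ flank of Nr4a1 was the lowest of all 11 (chr15:101113528-101114916, 15 probes), with -1.97, -1.62 and -1.29 on the 3 arrays. The arrays spread widely but none came near 0. The mean was -1.63 ± 0.34 (SD, n = 3), 3.09-fold below the median (adjusted p = 1.58e-06), and 0.748% of all regions were lower. A run of 10 lower probes covered 866 bp and averaged -2.36 ± 0.55, and 6 of them had bound signal not well above background on any array. In RefSeq the next protein-coding gene on that side is Atg101, which encodes an autophagy factor. Which gene this region belongs to was not tested.

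The Junb window held a pair of 3′ flanking regions of opposite character. The near one (chr8:87492578-87494869, 28 probes) gave -0.95, -1.42 and -0.96, low on all arrays. Its mean was -1.11 ± 0.27 (SD, n = 3), 2.16-fold below the median (adjusted p = 1.64e-05), with 15 probes lower and 2 higher, of which 1 had neither signal well above background on any array. Its longest run, 9 lower probes over 686 bp, averaged -2.20 ± 0.45, and 8 of the 9 had bound signal not well above background on any array. The far one (chr8:87489717-87491978, 20 probes, of which 16 lay inside the 10 kb window) gave 0.03, 0.35 and 0.18, a mean of 0.19 ± 0.16 that was not called (adjusted p = 0.186). Over the 16 probes inside the window alone the mean was 0.36 and was called higher (adjusted p = 0.0321). The region held 6 higher probes, 5 of them in a run of 476 bp that averaged 1.13 ± 0.26, and 2 lower ones. The next protein-coding genes on that side are Prdx2, a peroxiredoxin, and Rnaseh2a, a ribonuclease subunit.

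Where a window held several regions, the start was compared with the rest of the window per array. For Nr4a1 the start minus the rest was 2.28, 1.81 and 1.70, with means of 0.30 and -1.63 (difference 1.93 ± 0.31). For Egr1 the start was lower than the rest on all arrays, by a mean difference of -0.49 ± 0.15, and it turned to 0.031 with normexp, 0.41 with both channels above background and 0.32 with the floor. For Junb the difference was 0.02 ± 0.24 and its sign varied between arrays. An exact sign-flip permutation test over 3 arrays cannot give a two-sided p under 0.25, which was its value for Nr4a1 and Egr1, and it was 1 for Junb.

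The order of the start regions was Fosb, Fos, Egr1, Junb, Npas4, Arc and Nr4a1, from lowest to highest. The Nr4a1 region in this order lay inside its gene interval and not at the 5′ end of that interval. It was not placed against the RefSeq start. The array values of neighbours overlapped in 5 of the 6 neighbouring pairs. Within an array 4 of these 5 pairs went the same way on 3 of 3 arrays, by 0.15 ± 0.11 (Npas4 to Arc) to 0.43 ± 0.28 (Fosb to Fos), and Egr1 and Junb did not. Arc and Nr4a1 were the pair apart, with Nr4a1 above Arc by 0.46 ± 0.01 on 3 of 3 arrays (exact sign-flip permutation test, p = 0.25, which is the lowest value that 3 arrays allow). The ends of the order, Fosb and Nr4a1, differed by 1.73 ± 0.17. Averaged over all probes of the 10 kb window, the levels were -1.43 ± 0.28 for Fosb, -1.0 ± 0.29 for Fos and -0.63 ± 0.20 for Nr4a1. Junb stood at -0.57 ± 0.11, Egr1 at -0.49 ± 0.04, Npas4 at -0.30 ± 0.08 and Arc at -0.15 ± 0.11. Nr4a1 stood lower in this order than among the starts, since its window also held the low flank. The means of all 7 windows were below 0, but not under every setting. With both channels above background Nr4a1 stood at 0.57, Egr1 at 0.17 and Arc at 0.11. Nr4a1 stood at 0.30 where the window was 5 kb or 1 kb, which leaves out the flank. Egr1 and Arc were above 0 with the floor (0.16 and 0.17), Arc with series matrix values (0.14), and Npas4 stood at 0.0039 with loess and 0.0046 with series matrix values.

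The shape along each region was taken first as the difference between the probes within 200 bp of its midpoint and those more than 500 bp from it. Of the 11 regions 4 had a lower centre than edges and 0 a higher one (limma, adjusted p under 0.05), beside 32.4% lower and 17.0% higher over all regions tested. Arc had the strongest dip among the starts, with centre minus edges of -1.96, -1.01 and -1.46 on the 3 arrays. Its centre stood at -0.88 ± 0.20 and its edges at 0.60 ± 0.31 (difference -1.48 ± 0.48, adjusted p = 6.81e-04). The Nr4a1 start also dipped, from 0.81 at the edges to 0.08 at the centre (difference -0.74 ± 0.24, adjusted p = 0.0233). The Nr4a1 flank fell from -0.16 to -2.35 (difference -2.19 ± 0.77, adjusted p = 1.32e-04), and the near Junb flank from -0.82 to -1.48 (adjusted p = 0.0397). Fosb went the other way without passing the test, with 0.56 ± 0.80 (adjusted p = 0.139). Fos, Egr1, Junb and Npas4 starts were not called either, with differences from -0.36 to 0.15. The Npas4 dip was called with input above background (-0.84, adjusted p = 0.00677) and with both channels above background (-0.45, adjusted p = 0.0279), and the Fosb rise with normexp, loess and the floor (0.32 to 0.87, adjusted p = 0.011 to 0.0255). Without array 2 or without array 3 only 2 dips remained called, and those of the Nr4a1 start (adjusted p = 0.165 and 0.067) and the near Junb flank (0.209 and 0.132) did not pass. The near Junb flank also missed with loess (adjusted p = 0.0619), series matrix values (-0.40, 0.224), input above background (0.0682) and without probes dim in both channels (0.0873), and the Nr4a1 start with the floor (-0.43, 0.123).

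**Figure D5:**
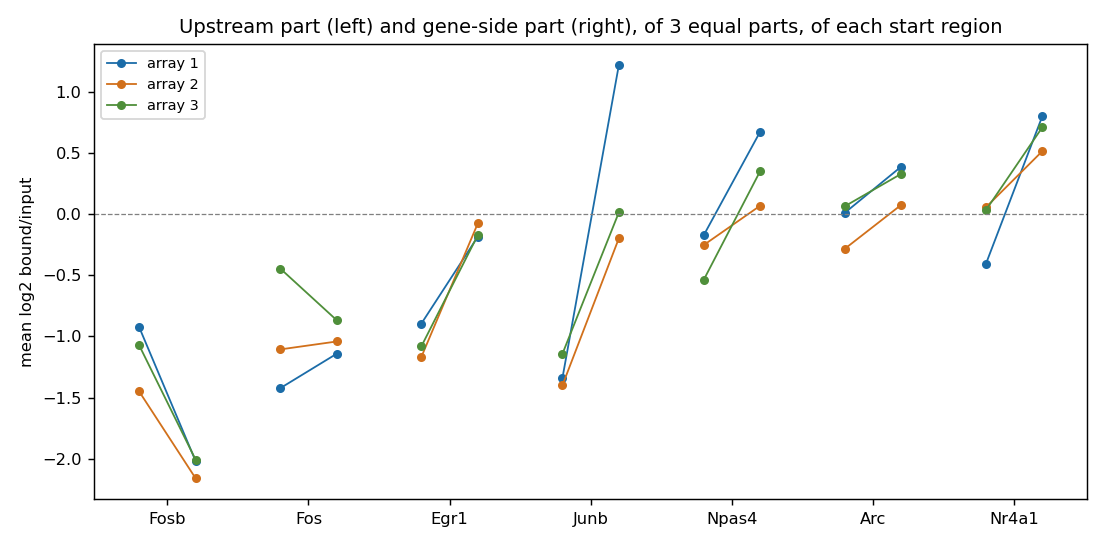
Mean log2 bound over input (vertical axis) of the upstream part (left point) and the gene-side part (right point), out of 3 equal parts, of the start region of each gene, with a line for each array. The lines rise towards the gene on all arrays in Egr1, Junb, Npas4, Arc and Nr4a1 and fall in Fosb.

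The second view, added after the data were seen, divided each region into 3 parts of equal length and set the upstream part against the part on the gene side. Over all regions 52.3% differed in either direction, and 7 of the 11 regions here did. The upstream part was lower in 4 of the 7 start regions and higher in 1. At Junb it averaged -1.29 ± 0.13 against 0.35 ± 0.76 (difference -1.64 ± 0.80, adjusted p = 0.00169), with array 1 at 1.22 on the gene side and the other arrays at -0.20 and 0.01. On array 1 the gene-side probes at 2.06 and 2.36 had input not well above background, and no probe of the region was called higher. At Egr1 the upstream part was -1.05 ± 0.14 against -0.15 ± 0.06 (adjusted p = 0.00817). The Nr4a1 start went from -0.11 to 0.67 (adjusted p = 0.0223), and Npas4 from -0.32 to 0.36 (adjusted p = 0.034). Both parts of the Nr4a1 region lay inside its gene interval. Fosb was the exception, since its gene side was the lower one, at -2.06 ± 0.08 against -1.15 ± 0.27 (difference 0.91 ± 0.19, adjusted p = 0.00779). Fos (0.03 ± 0.36) and Arc (-0.33 ± 0.06, adjusted p = 0.231) were not called. Arc was called lower upstream with loess (-0.78, adjusted p = 0.0126) and higher upstream over probes above background in both channels (0.49, adjusted p = 0.0171), so it has no settled direction. Several of these calls were lost under other settings. Leaving out 1 array left 5 of the 7 differences called: Npas4 did not pass without any 1 array, Nr4a1 without array 1 or 3, and Egr1 without array 2. With the authors' deposited log2 values Fosb fell to 0.46 (adjusted p = 0.117) and Npas4 to -0.36 (adjusted p = 0.244). The Nr4a1 start stood at -0.19 with loess (adjusted p = 0.518), and with the floor Egr1 stood at -0.36 (adjusted p = 0.168) and the far Junb flank at 0.46 (adjusted p = 0.122). The lines of upstream and gene-side parts show Fosb falling towards the gene on every array and Junb and Egr1 rising.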

How the data were processed

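The scanner files hold spot intensities made, per the file headers, with Agilent Feature Extraction 10.7.3.1, background-subtracted and dye-normalised with a linear factor, with surrogates in place of signals near background. A log10 ratio of red over green is also given, per the file headers. Log2 ratios deposited by the authors in the series matrix had column medians of -0.97 on all 3 arrays and tracked bound over input; their normalisation is not stated here.

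From processed signals, log2 of bound over input was computed for each spot without the 4474 control spots and 10 to 17 outlier spots an array. The array median (-0.19, -0.19 and -0.09) was subtracted. Replicate spots were averaged, leaving 409606 distinct probes of which 9 had no chromosome. Regions, probes, centre minus edges and outer parts (at least 2 probes in each) were fitted on the whole array with limma 3.58.1 in R 4.3.3, 1 group against 0, with Benjamini-Hochberg adjustment at 0.05, and the fits were tested on simulated data. The number of arrays limits the precision, and whole-genome amplification preceded labelling.

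Input was well above background at 69.0% to 83.3% of probes and bound signal at 47.3% to 65.9%. The sample descriptions give every array replicate number 1 and the titles number them 1 to 3. The titles were followed, so p-values measure the spread between arrays. All 7 members were named. Members, lists and regions were chosen with earlier results of these data known. Alternatives were normexp (on median signals, since no mean signal is given), loess (span 0.3), another zero, the scanner and series matrix ratios, filters on dim probes, joining at 300 or 1000 bp, and each array left out. Gene strands are from RefSeq promoters, or general knowledge for Arc and Egr1.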

Additional observations from a re-analysis of the deposited data

How the results depend on the processing

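All of these depend on 3 arrays of 1 dye orientation, and dim bound signal limits the low values. The Fosb start and the near Junb flank remained lower in each of the 17 alternatives, the Nr4a1 flank in the 16 that could be run, and the Arc dip of centre against edges in 14. Joined at 1000 bp, the near Junb flank was counted together with the far one. No comparison between groups was possible because the samples form 1 group. Where values below turned sign or moved, the cause was not tested.

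Members called higher numbered 0 with the mode as zero or the probe length trend removed, 2 with series matrix values, probe medians or the floor (bound signals raised to it), 3 of 10 tested with both channels above background, and 0 without any 1 array, against 1 of 11. Members called lower numbered 11 with the mode, 4 with both channels above background, 3 with the floor, and 6 to 7 with an array left out, against 7. Over the array 17967 regions were higher and 1997 lower with the floor, 11410 and 4980 of 22041 with both channels above background, and 2496 and 22234 with the mode, and the floor moved the median of all regions to 0.61. Higher regions over the array numbered 8480 with the probe length trend removed, 8797 of 28577 with series matrix values and 8276 with probe medians. With an array left out 6655 to 7796 were higher and 9191 to 10545 lower over the array. The main values were 8075 and 11000 of 28881. Higher probes numbered 5 with the mode, 44 with the floor and 8 to 14 with an array left out, against 24. Over the array they numbered 31859, 167832 and 42674 to 63336 in these settings, against 91801. Lower probes numbered 49 of 182 tested with series matrix values (60902 of 373798 over the array) and 49 of 188 with the floor (62891 of 409559). With both channels above background they numbered 29 of the 79 tested (38596 of 173295). With an array left out they numbered 49 to 68 (58568 to 86576 over the array), against 75 of 188 (96472 of 409559). Dips numbered 2 with the floor and 2 to 4 with an array left out, against 4, and 1 region was higher at its centre with normexp, loess or the floor. Differing outer parts numbered 4 of the 6 regions tested with both channels above background, against 7 of 11.

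The median of the 7 gene levels (-0.57) was -0.18 with normexp, -0.35 with loess, -1.29 with the mode, -0.28 with series matrix values, -0.0060 with both channels above background, -0.73 with the filter on input alone, -0.071 with the floor and -0.34 for probes within 1 kb. Start minus rest for Egr1 (-0.49) was 0.031 with normexp, -0.17 with loess, -0.81 with series matrix values, 0.41 with both channels above background, -0.66 with the filter on input alone and 0.32 with the floor. For Junb (0.02) it was -1.16 with both channels above background and -0.28 with the floor. For Nr4a1 (1.93) it was 0.74 with normexp, 1.52 with loess, 0.98 with both channels above background, 2.28 with the filter on input alone and 1.24 with the floor.

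Region means turned sign as follows. The Arc start was 0.14 with series matrix values, 0.11 with both channels above background and 0.17 with the floor. The Egr1 3′ end was 0.20 with series matrix values and 0.0085 with both channels above background, and the Egr1 start was 0.42 and 0.29 with both channels above background and with the floor. The far Junb flank was -0.53 with the mode and -0.57 joined at 1000 bp, where it merged with the near one. Joined at 300 bp it split, and -0.20 was the value of its outer part alone, without the run of higher probes. The Npas4 start was 0.0039 with loess and 0.0046 with series matrix values, and the Nr4a1 start -0.42 with the mode.

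Centre minus edges turned for the Egr1 3′ end to -0.016 with loess, -0.088 with both channels above background and -0.12 with the floor. For the Egr1 start it was -0.093 with normexp, -0.016 with loess, -0.050 with series matrix values, -0.032 with input above background, -0.099 without probes dim in both channels and -0.19 with the floor. For Fos it was 0.075 with normexp, 0.21 with loess, 0.16 with the floor and -0.25 to 0.17 with an array left out. The far Junb flank gave 0.36 with series matrix values and -0.24 to 0.075 with an array left out, the near one 0.20 with normexp and 0.0031 with the floor, and the Junb start 0.23 with input above background. Upstream minus gene-side parts turned for Arc to 0.095 with normexp, 0.0011 with series matrix values and 0.49 with both channels above background, and for the Egr1 3′ end to 0.0025 with loess. For Fos they were -0.048 with normexp, -0.19 with loess, -0.12 with series matrix values, -0.0057 with the scanner ratios, -0.025 with input above background and -0.17 to 0.18 with an array left out. The near Junb flank gave 0.16 with normexp, 0.27 with loess, 0.056 with input above background, 0.11 without probes dim in both channels and 0.21 with the floor.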
